A study of Mus musculus with 24 samples.

Results

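The genes described here are 10 genes of the endoplasmic reticulum (ER): the chaperones and folding factors Hspa5, Hsp90b1, Pdia4, Sdf2l1, Creld2 and Dnajb9, the degradation factor Herpud1, and the stress sensors and transcription factors Xbp1, Ern1 and Atf6. They were chosen by name, as a set known for the unfolded protein response, when earlier results of these data were known. Each symbol matched 1 Ensembl identifier among the 22392 genes in the table of liver RNA levels. The livers came from 24 CD2F1 mice, with 8 in each of 3 groups, and each library is a separate mouse. CT mice were sham-injected and carried no tumour. C26 mice carried transplanted C26 cells, a colon carcinoma line that causes wasting (cachexia), and received no treatment. C26-CHO mice, given the same cells, ate a diet with 2% (by weight) of cholestyramine, which is a bile acid-binding resin that stays in the gut, between day 1 and day 10 after the cells were injected. The sex and age of the mice were not given in the sources used here, and the tumour groups rest on 1 tumour line.

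Secreted and membrane proteins fold in the ER, and a hepatocyte secretes most plasma proteins, so its ER carries a heavy folding load. When unfolded proteins gather there, sensors in the ER membrane start the unfolded protein response. IRE1, encoded by Ern1, splices the mRNA of the transcription factor XBP1, ATF6 is cut by Golgi proteases into an active transcription factor, and PERK slows translation and raises ATF4. ATF6 and XBP1 act on short promoter sequences, among them the ER stress element (ERSE), and raise genes for chaperones, folding enzymes and ER-associated degradation. Gene-level values do not separate the spliced from the unspliced Xbp1 mRNA, nor the cut from the uncut ATF6 protein, so activation of either sensor was not measured.

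The promoters are shown first because the letters of the ERSE are shared by some of the genes that moved together and by genes outside the set. Windows from 250 bases before the RefSeq start to 50 after it were taken from RefSeq on GRCm38.p6 for the 9 of 10 genes that matched. The ERSE was searched as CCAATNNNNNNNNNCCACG on both strands, and it occurred in 39 of 32851 windows of all genes, or 0.119%. It occurred in 3 of the 9 windows, those of Hspa5, Hsp90b1 and Creld2. The related ERSE-II, searched on both strands as ATTGG, any 1 base and CCACG, occurred in 0.0365% of all windows and in that of Herpud1. The unfolded protein response element TGACGTGG, searched on both strands, occurred in 0.676% of all windows and in 0 of the 9. The letters CCAAT alone, which are part of the ERSE and occur reverse-complemented in the ERSE-II, occurred in 37.4% of windows on either strand and in all of the 9 but those of Xbp1 and Ern1. A match describes the letters in this window and is not evidence of a bound site.

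The 250 bases before the start of the 4 genes with an ERSE or ERSE-II are printed below on the strand of the gene, with the fixed letters of each element in capitals. The windows lie at chr2:34771840-34772089 on the plus strand for Hspa5, chr10:86705445-86705694 on the minus strand for Hsp90b1, chr15:88819396-88819645 on the plus strand for Creld2 and chr8:94386179-94386428 on the plus strand for Herpud1.
Hspa5: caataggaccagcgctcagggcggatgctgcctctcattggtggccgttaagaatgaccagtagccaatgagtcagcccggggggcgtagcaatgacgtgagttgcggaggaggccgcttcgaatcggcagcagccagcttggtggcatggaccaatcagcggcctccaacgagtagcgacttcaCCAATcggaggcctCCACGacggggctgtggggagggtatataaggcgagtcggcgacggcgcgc
Hsp90b1: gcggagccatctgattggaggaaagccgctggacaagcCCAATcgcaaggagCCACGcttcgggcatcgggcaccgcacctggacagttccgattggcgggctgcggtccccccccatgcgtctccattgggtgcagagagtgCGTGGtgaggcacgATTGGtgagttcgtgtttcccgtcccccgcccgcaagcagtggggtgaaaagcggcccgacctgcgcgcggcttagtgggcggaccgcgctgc
Creld2: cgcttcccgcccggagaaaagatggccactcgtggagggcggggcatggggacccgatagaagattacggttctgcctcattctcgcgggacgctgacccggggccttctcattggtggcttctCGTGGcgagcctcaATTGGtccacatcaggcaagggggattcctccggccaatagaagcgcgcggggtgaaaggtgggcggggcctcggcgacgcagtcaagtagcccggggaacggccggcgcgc
Herpud1: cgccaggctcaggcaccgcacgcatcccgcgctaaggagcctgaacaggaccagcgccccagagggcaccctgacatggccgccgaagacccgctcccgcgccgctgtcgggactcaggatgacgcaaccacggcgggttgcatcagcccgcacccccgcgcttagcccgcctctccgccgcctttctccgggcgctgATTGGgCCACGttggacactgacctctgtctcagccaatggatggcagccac
The ERSE of Hspa5 lies on the strand of the gene, while that of Creld2 lies on the opposite strand and so reads reverse-complemented. Hsp90b1 has an ERSE on each strand. RefSeq and GENCODE starts differ for some genes: 120 bases of the Hspa5 window, its ERSE among them, and 65 of the Hsp90b1 window, with no ERSE, lie inside the GENCODE span of the gene. Of the windows not printed, that of Dnajb9 lies inside it with all 250 bases and that of Ern1 with 56.

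In the GENCODE M21 annotation of GRCm38 all 10 are protein-coding, and they lie on 9 chromosomes, with Xbp1 and Ern1 both on chromosome 11. Hspa5 spans chromosome 2 from 34771970 to 34777547 and Herpud1 spans chromosome 8 from 94386438 to 94395377. Of the exon bases of Hsp90b1, 15.7% are shared with other annotated genes, so part of its reads could have been assigned elsewhere or dropped. For Dnajb9 and Pdia4 the shared part was a microRNA gene and came to 0.549% and 0.584% of exon bases, and for the other 7 genes it was 0.

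Recovered reads ranged from 19.9 to 30.5 M per library, with a mean of 25.8 M in C26-CHO, 22.8 M in C26 and 22.02 M in CT. Every gene of the set had at least 299 reads in each library. Levels are the deposited normalized values, that is, reads divided by the size factor of the library. Differences are log2 fold changes of the value plus 1 from a single limma fit over all 24 libraries, and calls were made at a Benjamini-Hochberg adjusted p under 0.05 over the 14040 tested genes. All 10 genes passed the filter on low values, a mean of at least 10. The liver markers checked were present: 8 hepatocyte markers, including Alb, summed to between 564800 and 1634000 in each library.

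First, C26 was compared with CT, which asks how these genes differ between the livers of tumour-bearing and healthy mice. The ER chaperones and folding factors rose together, from 1.95-fold for Hsp90b1 to 4.64-fold for Sdf2l1. The transcription factor gene Xbp1 rose 2.74-fold, Atf6 rose 1.15-fold, and the sensor gene Ern1 was not called. Herpud1 went the other way and fell to 0.504 of its CT level. Of the 10 genes 8 were called higher and 1 lower, where 33.3% of tested genes were called higher and 32.9% lower. The median log2 fold change of the 10 genes was 1.36, and that of all tested genes was 0.01. Since 66.3% of tested genes were called in 1 direction or the other, a call by itself says little and the sizes carry the description. A change of at least 2-fold was called in 6 of the 10 genes, all of them higher, and in 17.4% of tested genes in either direction. In 7 genes every C26 mouse lay above every CT mouse, a separation found upward in 16.9% of tested genes.

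**Figure D1:**
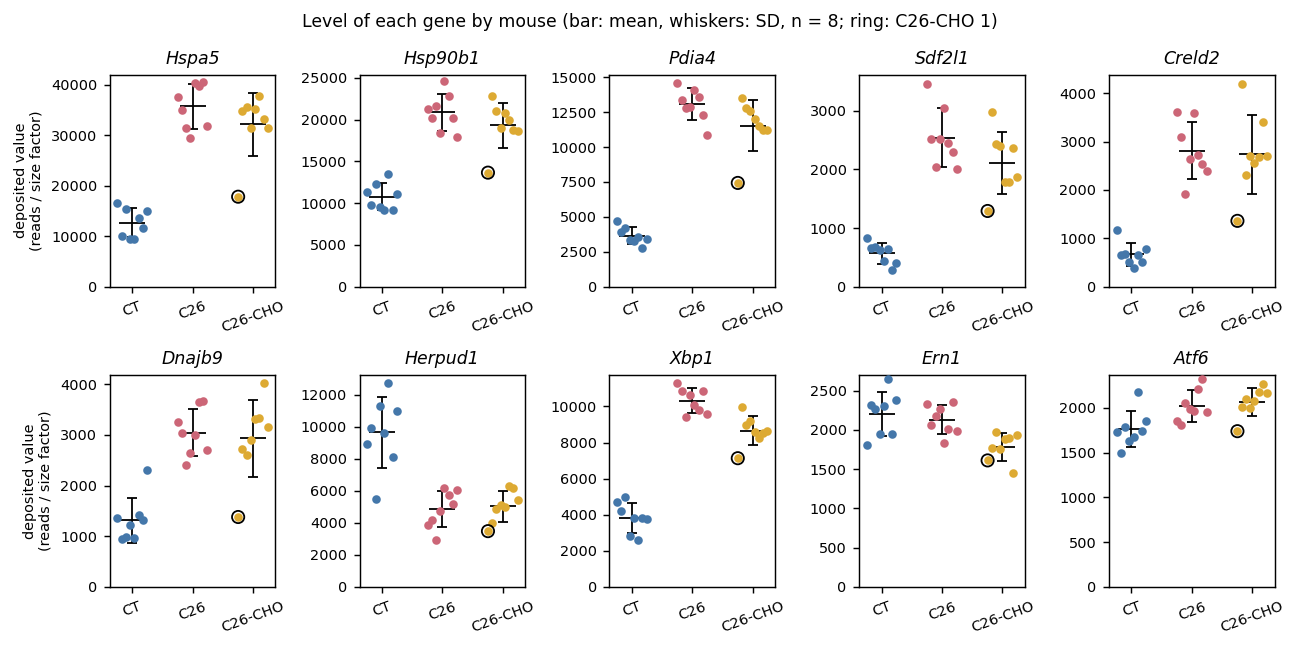
Deposited value (reads divided by size factor, linear axis from 0) of each of the 10 genes in every mouse, by group. Dots are mice, black bars are means with SD (n = 8) and the ring marks C26-CHO 1. The 7 genes Hspa5, Hsp90b1, Pdia4, Sdf2l1, Creld2, Dnajb9 and Xbp1 show C26 mice wholly above CT mice, and Herpud1 shows lower values in both tumour groups.

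Hspa5 encodes BiP, the main Hsp70 chaperone of the ER, which also holds the stress sensors inactive. Its level ran from 9467 through a median of 12609 to 16638 in CT and from 29419 through 36216 to 40489 in C26. The lowest C26 mouse thus stood well above the highest CT mouse. The log2 fold change was 1.52 (SE 0.138, limma adjusted p = 4.25e-10). Hsp90b1 encodes GRP94, the Hsp90 chaperone of the ER. It ran from 9124 through 10469 to 13546 in CT and from 17895 through 20747 to 24635 in C26, again without overlap, with a log2 fold change of 0.97 (SE 0.0957, limma adjusted p = 1.92e-09).

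Pdia4 encodes ERp72, a protein disulfide isomerase that forms and rearranges disulfide bonds. Its CT values ran from 2778 through 3498 to 4726 and its C26 values from 10867 through 13119 to 14608. The gap between the groups was wider than the range within either of them, and the log2 fold change was 1.85 (SE 0.105, limma adjusted p = 5.27e-14). Among the 10 genes this was the lowest adjusted p, though not the largest change.

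Sdf2l1 and Creld2 encode smaller ER proteins, a partner of the BiP chaperone cycle and a disulfide isomerase-like factor released under ER stress. Sdf2l1 ran from 277 through 629 to 828 in CT and from 2005 through 2490 to 3461 in C26, a log2 fold change of 2.21 (SE 0.184, limma adjusted p = 8.12e-11). Creld2 ran from 378 through 649 to 1162 in CT and from 1912 through 2684 to 3615 in C26, a log2 fold change of 2.12 (SE 0.196, limma adjusted p = 5.38e-10). These were the largest changes of the set, and neither gene had a C26 mouse inside the CT range.

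Dnajb9 encodes ERdj4, a J-domain partner of BiP. Its CT values ran from 942 through 1266 to 2305 and its C26 values from 2413 through 3016 to 3670. The groups did not overlap, although CT 8, the highest CT mouse, came close to the lowest C26 mouse. The log2 fold change was 1.26 (SE 0.176, limma adjusted p = 6.90e-07).

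Herpud1 encodes an ER membrane protein that serves ER-associated degradation, in which misfolded proteins are passed out of the ER to the proteasome. Like the chaperones it is a textbook target of the unfolded protein response, but its level was lower in tumour-bearing mice. It ran from 5493 through 9789 to 12749 in CT and from 2955 through 4963 to 6170 in C26. The ranges overlapped, with 5 of 8 C26 mice below every CT mouse and 8 of 8 below the CT mean; 18% of tested genes separated fully downward. The log2 fold change was -0.99 (SE 0.160, limma adjusted p = 6.18e-06), and it was -0.66 (limma adjusted p = 0.000612) under quantile normalization, the smallest fall over the 10 alternatives that left out no library. An antisense gene overlaps Herpud1 without sharing exon bases, and whether counting used strand was not given in the sources used here.

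The sensors and transcription factors differed among themselves. Xbp1 ran from 2595 through 3819 to 4978 in CT and from 9439 through 10374 to 11318 in C26, without overlap, with a log2 fold change of 1.46 (SE 0.102, limma adjusted p = 2.94e-12). Atf6, the precursor of the ATF6 transcription factor, moved little: 1498 through 1738 to 2174 in CT against 1802 through 1969 to 2326 in C26. Although the groups overlapped, 8 of 8 C26 mice lay above the CT mean, and the log2 fold change of 0.20 was called (SE 0.0664, limma adjusted p = 0.0101). Ern1 had 1809 through 2283 to 2642 in CT and 1837 through 2120 to 2350 in C26, so that the C26 range fell inside the CT range. Its log2 fold change was -0.04 (95% confidence interval -0.20 to 0.11, limma adjusted p = 0.628), or 0.13 under quantile normalization, which was not called either.

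**Figure D2:**
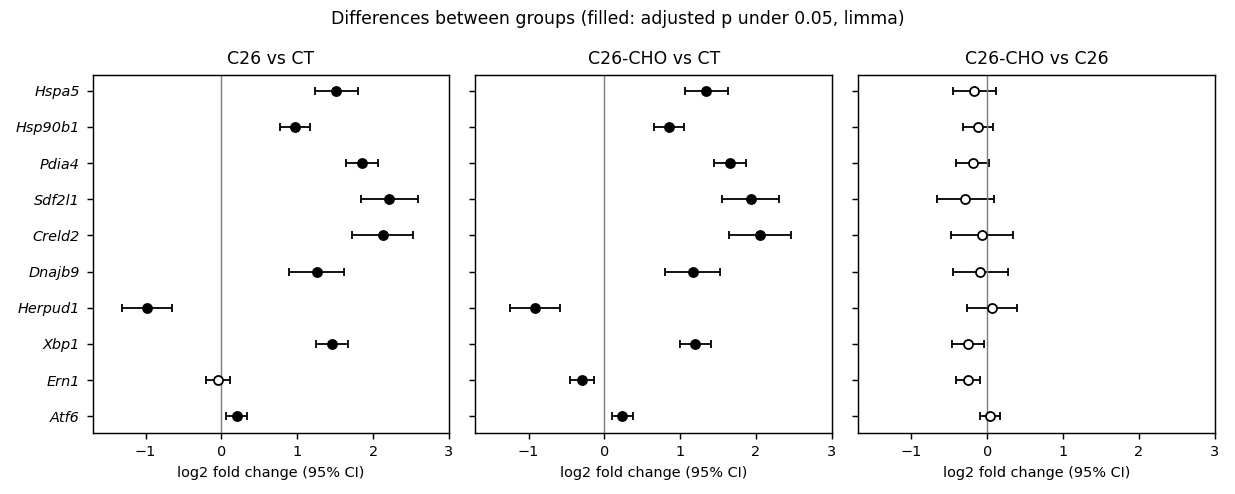
Log2 fold change (x axis) of each gene in the 3 comparisons, with the 95% confidence interval of the limma fit over 24 libraries; filled circles have an adjusted p under 0.05. Against CT both tumour groups show 8 genes to the right of 0 and Herpud1 to the left, Ern1 lies left of 0 and is filled in C26-CHO vs CT alone (not under quantile normalization, which puts it at 0.13 in C26 vs CT), and in C26-CHO vs C26 no circle is filled.

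Set per kilobase of exon, so that genes of different length can be compared, the order of the levels changed between the groups. In CT livers Herpud1 had the highest level at 4134 ± 950 per kb, followed by Hspa5 at 2998 ± 676 and Hsp90b1 at 2665 ± 403 (mean ± SD, n = 8), each within the spread of the next. Herpud1 was above Hspa5 per kb in 6 of 8 CT mice and in 0 of 8 C26 mice. Pdia4 had 1523 ± 256 and Xbp1 1182 ± 254. Dnajb9, Sdf2l1 and Creld2, at 515 ± 174, 512 ± 163 and 487 ± 174, did not differ from each other beyond their spread, and Ern1 and Atf6 were lowest at 269 ± 34.0 and 191 ± 21.5. In C26 livers Hspa5 led with 8446 ± 1048 per kb, ahead of Pdia4 with 5448 ± 480 and Hsp90b1 with 5182 ± 549, which lay within their spread of each other. Xbp1 had 3178 ± 213 per kb in C26. Herpud1 was then the sixth of the 10, at 2085 ± 488 per kb, within the spread of Sdf2l1 at 2297 ± 447 and Creld2 at 2061 ± 432. Dnajb9 had 1194 ± 180 per kb in C26, above Ern1 at 260 ± 22.5 and Atf6 at 219 ± 19.1. In C26-CHO livers Hspa5 again led with 7604 ± 1458 per kb, Pdia4 and Hsp90b1 had 4810 ± 773 and 4797 ± 669, and Ern1 was lowest at 219 ± 21.8, within the spread of Atf6 at 224 ± 17.3. Together the 10 genes took 0.236% ± 0.0291 of all reads in CT and 0.385% ± 0.0324 in C26 (SD, n = 8).

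The wider machinery of the ER was described from lists written from textbook knowledge, when earlier results of these data were known. Of 23 other ER chaperones and folding enzymes 19 were called higher in C26 vs CT and 0 lower, with a median log2 fold change of 0.73. The disulfide isomerase Pdia5 had 1.32, the lectin chaperone calreticulin, Calr, 1.30, and the BiP partners Dnajb11 and Dnajc10 had 1.33 and 1.29, with limma adjusted p from 7.74e-16 to 1.75e-11. The 4 genes that were not called are named here after their values were seen. They were the membrane lectin chaperone Canx (0.11), the prolyl isomerase Fkbp2 (0.08), and Sdf2 (-0.05) and Creld1 (-0.08), the paralogs of Sdf2l1 and Creld2. Canx was called higher under quantile normalization (0.45, limma adjusted p = 1.03e-06) and without CT 6 (0.15, limma adjusted p = 0.0227). Sdf2 and Creld1 were called under none of the alternatives, and the difference between each of them and its paralog was not tested.

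ER-associated degradation had 16 of 20 genes higher and 2 lower in C26 vs CT, with a median of 0.48. Edem1, which draws misfolded glycoproteins out of folding, had 0.87, the retrotranslocation factors Faf2 and Derl1 had 0.56 and 0.51, and the ubiquitin-conjugating enzyme Ube2g2 had 0.74, with limma adjusted p from 1.36e-10 to 9.99e-10. The lower genes were Derl2 with -0.39 (limma adjusted p = 2.54e-06) and the extraction motor Vcp with -0.28 (limma adjusted p = 8.95e-05), and the latter was not called under quantile normalization (-0.05, adjusted p = 0.386). Herpud2, the paralog of Herpud1, was called higher with 0.24 and is named after its value was seen. Herpud1 thus fell while most genes of the process it serves rose.

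Of 11 tested genes of the sensors, their proteases and related transcription factors 8 were higher and 1 was lower in C26 vs CT, with a median of 0.50. Creb3l2, an ER-anchored transcription factor, had 1.47. The co-chaperone Dnajc3, which restrains PERK, had 0.93, the ER membrane protein wolframin, Wfs1, 0.84, and Mbtps1, the first protease to cut ATF6, 0.50. Their limma adjusted p ran from 1.22e-10 to 1.25e-07. The lower gene was Tmbim6, an inhibitor of IRE1 and of cell death, with -0.78 (limma adjusted p = 1.76e-09). In the PERK and ATF4 arm 10 of 13 genes were higher and 0 lower, with a median of 0.89. Atf4 itself had 0.68, the glutathione-degrading enzyme Chac1 3.05, the stress protein Nupr1 3.23 and asparagine synthetase, Asns, 6.10, from a mean of 7.59 in CT to 538 in C26.

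Chaperones outside the ER were described in the same way. Of 16 cytosolic heat shock genes 3 were higher and 4 lower in C26 vs CT, both below the shares of all tested genes, and the median was 0.03. The small heat shock protein Hspb8 had 0.86, its partner Bag3 0.96 and the inducible cytosolic Hsp90 gene Hsp90aa1 0.43. The Hsp40 gene Dnaja1 had -0.49, and Hspa1a and Hspa1b, near-identical genes whose reads may have been divided between them in counting, had -1.57 and -1.58. Hspa4 had -0.16 (limma adjusted p = 0.00513), or 0.06 (adjusted p = 0.364) under quantile normalization. Mitochondrial chaperones and proteases had 2 of 10 genes higher and 6 lower, with a median of -0.21. Trap1 and Hspa9, the mitochondrial Hsp90 and Hsp70, had -0.98 and -0.51, the proteases Lonp1 and Htra2 -0.75 and -0.39, and the higher genes Clpx and Dnaja3 0.51 and 0.43. Under quantile normalization 4 mitochondrial genes were higher.

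**Figure D3:**
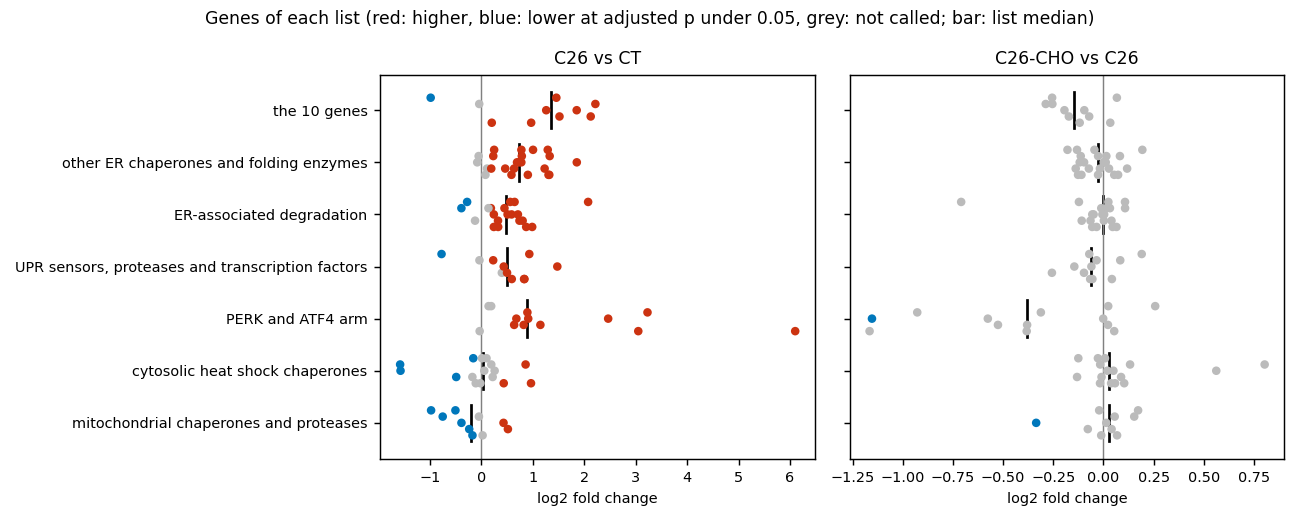
Log2 fold change (x axis) of every tested gene of each list in C26 vs CT (left) and C26-CHO vs C26 (right, other axis range); red is called higher, blue called lower, grey not called at an adjusted p of 0.05, and black bars are list medians. In C26 vs CT the ER lists lie mostly right of 0 with medians from 0.48 to 1.36, and the heat shock and mitochondrial lists have medians of 0.03 and -0.21, where Hspa4 and Grpel1 change sign under quantile normalization.

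The ERSE letters gave a set of genes chosen by sequence, although the element itself is known from the control of ER chaperone genes. Among 10149 tested genes with a promoter window 19 held the element, at 19 positions in all: Hsp90b1 has 2, and Creld2 and its neighbour Alg12, transcribed in the other direction, share 1. In C26 vs CT 14 of the 19 were called higher (73.7%) and 1 lower (5.26%), with a median log2 fold change of 0.97. Over all tested genes with a window 34.4% were higher and 32.9% lower, with a median of 0.02. Leaving out Hspa5, Hsp90b1 and Creld2, 11 of 16 were higher and 1 lower, with a median of 0.78. Alg12, whose element is the one shared with Creld2, stayed among them. Of these 16, the 6 that stand in one of the lists above had 5 higher, and the 10 in no list had 6 higher and 1 lower, so the counts outside the lists are small. The count of 11 ran from 9 to 12 over the alternatives. Adcy3 (0.38, limma adjusted p = 0.0381), a higher gene in no list, is named after its value was seen. It was not called without a filter (limma adjusted p = 0.0619), under quantile normalization (0.0923) or with the replicate block (0.0584). Nor was it called without any 1 of CT 2, 6, 7 and 8 and C26 2, 5, 6 and 8. The lower gene was Acacb, an acetyl-CoA carboxylase of fatty acid metabolism, with -1.10, named after its value was seen. The 8 tested genes with the ERSE-II had 4 higher and 2 lower, 1 of them Herpud1, and the 103 with TGACGTGG had 37.9% higher and 23.3% lower.

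The elements are set side by side below to show that the spacer between the fixed letters differed among these genes, apart from the shared element above and the pair Xlr3a and Xlr3b. Each is written on the strand of the motif, with the fixed letters in capitals. They are those of the 3 genes of the set, of the 4 other genes with the lowest p in C26 vs CT (Acnat2, Calr, Alg12 and Spats2l), of Dnajc3, Pdia6 and Derl3 from the lists, and of the 5 genes that were not higher: Canx, Hnrnpa3, Xlr3a, Xlr3b and Acacb. These last were added after their values were seen. That of Spats2l lies after the start, from base 21 to base 39.
Hspa5: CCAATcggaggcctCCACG
Hsp90b1, far element: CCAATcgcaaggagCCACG
Hsp90b1, near element: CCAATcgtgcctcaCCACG
Creld2 and Alg12: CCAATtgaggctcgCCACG
Calr: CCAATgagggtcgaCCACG
Dnajc3: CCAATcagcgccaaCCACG
Pdia6: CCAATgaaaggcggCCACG
Derl3: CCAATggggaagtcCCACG
Acnat2: CCAATattttttttCCACG
Spats2l: CCAATtctgttcccCCACG
Canx: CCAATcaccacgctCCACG
Hnrnpa3: CCAATggcgagagcCCACG
Xlr3a and Xlr3b: CCAATgaaatgaagCCACG
Acacb: CCAATagccttgccCCACG
In C26 vs CT Calr had a log2 fold change of 1.30, Alg12, a mannosyltransferase that builds the glycan added to ER proteins, 1.55, Dnajc3 0.93, Pdia6 0.63 and the retrotranslocation factor Derl3 2.07. Outside ER biology Acnat2, an acyltransferase, had 3.88 and Spats2l 2.10. With the same fixed letters Canx had 0.11, Hnrnpa3 -0.02, Xlr3a 0.34 and Xlr3b 0.51, none of them called, and Acacb was lower.

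**Figure D4:**
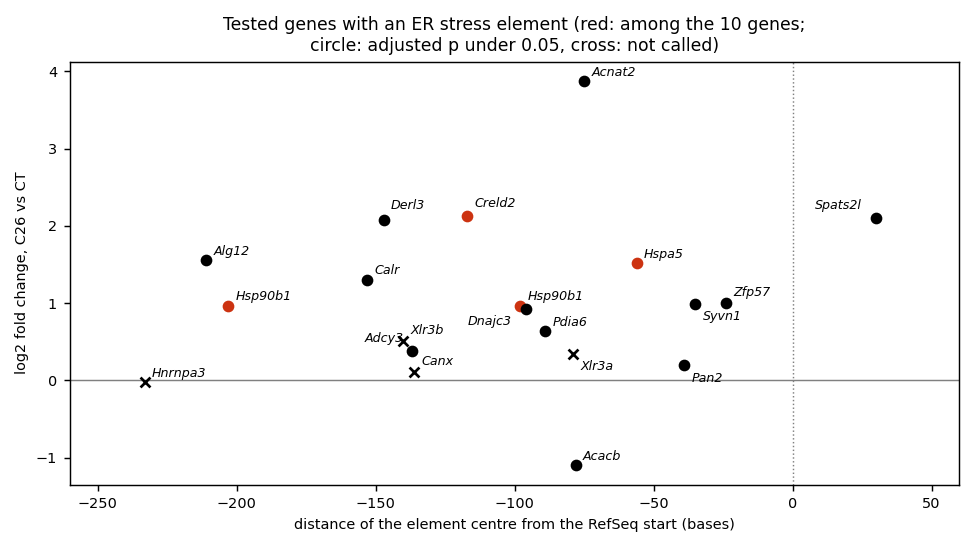
Log2 fold change in C26 vs CT (y axis) against the distance of the ER stress element from the RefSeq start (x axis, bases), 1 point per element and gene; red marks Hspa5, Hsp90b1 and Creld2, circles an adjusted p under 0.05 and crosses genes not called. Of the 19 genes 14 were called higher, and Acacb, at -1.10, was called lower.

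Cells other than hepatocytes also express ER chaperone genes, and in bulk liver fewer cells of a type and less RNA per cell cannot be told apart. Plasma cells, which carry a large ER, were checked with 7 markers: their summed level ran from 262 to 642 in CT, from 320 to 485 in C26 and from 225 to 453 in C26-CHO, with overlapping ranges. Of the 5 tested, Ighm was called lower in C26 vs CT, with means of 267 in CT and 95.5 in C26. Derl3, which is also in the degradation list, was called higher, with 52.4 in CT and 208 in C26, and 3 were not called. The sum thus mixes changes in opposite directions and does not stand for the list. For the counts of markers called in C26 vs CT, the shares over all tested genes were 33.3% higher and 32.9% lower. Kupffer cell and macrophage markers had 7 of 8 higher, and their sum ran from 4270 to 6197 in CT and from 7491 to 9807 in C26. Sinusoidal endothelial markers had 5 of 7 higher and 1 lower, with sums from 3574 to 5037 and from 4582 to 6307. Neutrophil markers summed to between 8.88 and 26.5 in CT and between 115 and 567 in C26, with 2 of 2 tested markers higher. Stellate cell markers had 2 of 7 higher and 1 lower, both below the shares of all tested genes. Their sums ran from 3955 to 5625 in CT and from 4755 to 6812 in C26. Of 5 tested cholangiocyte markers Sox9 and Spp1 were higher, and Krt7, Krt19 and Epcam were not called, with sums from 312 to 473 and from 5471 to 11390. The median log2 fold change of these 5 was -0.13, so the rise of the sum does not stand for the list. Of 2 tested pancreatic acinar markers 1 was lower, with sums from 638 to 1002 and from 94.7 to 738, and Prss2 was at 0 in all CT livers. The hepatocyte sum was lower in C26, from 564800 to 755700 against 1402000 to 1634000 in CT, with 2 of 8 markers called higher and 4 lower. Most of that fall was Alb, with a mean of 1034300 in CT and 250840 in C26. Ttr, Cps1 and Apoa1 were also called lower, with -2.52, -1.33 and -0.27, while Hnf4a and Tat were higher with 0.40 and 0.82. In C26-CHO vs C26 no marker of these lists was called. The part of these cells in the changes above was not tested.

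Second, C26-CHO was compared with C26, which asks whether cholestyramine changed these genes in tumour-bearing mice. None of the 10 genes was called in the limma fit, where 0.556% of tested genes were called higher and 0.15% lower. At an unadjusted p under 0.05 there were 2, Ern1 and Xbp1, where 1832 of the 14040 tested genes had such a p. Of the 10 genes edgeR called 0 and DESeq2 called 1. The median log2 fold change of the set was -0.15. Groups separated fully in 0 of the 10 genes, and in 0.0997% of tested genes upward and 0.0356% downward. A p that misses the threshold does not show equal levels, and the confidence intervals give the sizes that the data allow. Hspa5 ran from 17824 through 33972 to 37738 in C26-CHO and had -0.17 (95% confidence interval -0.46 to 0.11, limma adjusted p = 0.655). Hsp90b1 ran from 13657 through 19520 to 22883 and had -0.12 (-0.32 to 0.08, limma adjusted p = 0.658). Pdia4 ran from 7432 through 11750 to 13533 and had -0.19 (-0.41 to 0.02, limma adjusted p = 0.447). All 3 ranges overlapped those of C26 mice.

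Sdf2l1, with 1291 through 2117 to 2975, had -0.29 (95% confidence interval -0.67 to 0.09). Creld2, with 1361 through 2691 to 4198, had -0.07 (-0.48 to 0.33), and Dnajb9, with 1381 through 3027 to 4029, had -0.10 (-0.46 to 0.27). For each of the 3 genes the SD among C26-CHO mice was above that among C26 mice. That SD includes C26-CHO 1, which had the lowest value of its group in each, so by itself it does not describe the spread among the other treated mice. Herpud1 ran from 3482 through 5051 to 6320 and had 0.07 (-0.26 to 0.40, limma adjusted p = 0.910), and its highest value lay below the CT median. Atf6 ran from 1738 through 2089 to 2260 and had 0.03 (-0.10 to 0.17).

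Xbp1 and Ern1, the transcription factor gene and the gene of the enzyme that splices its mRNA, had the lowest p of the set in this comparison. Xbp1 ran from 7134 through 8612 to 9982 in C26-CHO, with 7 of 8 mice below every C26 mouse and 8 of 8 below the C26 mean. Its log2 fold change was -0.26 (95% confidence interval -0.46 to -0.05, unadjusted p = 0.0184, limma adjusted p = 0.255), which did not pass correction. Ern1 ran from 1454 through 1828 to 1977, with 4 of 8 mice below every C26 mouse and 8 of 8 below the C26 mean. Its log2 fold change was -0.25 (-0.41 to -0.10, unadjusted p = 0.00247, limma adjusted p = 0.112). The adjusted p of Ern1 ran from 0.0497 to 0.152 over the 10 alternatives with all mice, and the lowest, from DESeq2, was the only one to pass.

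Of the other ER genes none was called in C26-CHO vs C26: 0 of 23 in folding, 0 of 20 in degradation and 0 of 11 among sensors, with medians of -0.03, 0.00 and -0.06. The lowest p in each list belonged to Txndc5 (0.12), Faf2 (-0.12) and Tmbim6 (0.19). Derl3 had -0.71 (limma adjusted p = 0.280). The PERK and ATF4 arm had 1 of 13 genes lower and 0 higher, with a median of -0.38. Trib3, a kinase-like inhibitor raised by ATF4, had 342 ± 86.2 in C26 mice and 162 ± 63.4 in C26-CHO mice (SD, n = 8). Its log2 fold change was -1.15 (limma adjusted p = 0.0208), and the call ended with only these 2 groups in the fit (adjusted p = 0.0752), without C26 1 (0.0661) and without C26-CHO 7 (0.0540). Asns had -1.17 and Ddit3, the transcription factor CHOP, -0.53 (limma adjusted p = 0.109 and 0.0737). Ddit3 was called without C26-CHO 2 (limma adjusted p = 0.0330) and by DESeq2 (adjusted p = 0.0177). Of the heat shock genes 0 of 16 were called, and of the mitochondrial genes Dnaja3 was lower with -0.34 (limma adjusted p = 0.0315), a call that ended with 2 groups in the fit (adjusted p = 0.109) and in 10 of the 24 fits that left out a mouse (C26 1, 3, 4, 6 or 7, or C26-CHO 1, 5, 6, 7 or 8).

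The third comparison, C26-CHO vs CT, sets the treated tumour-bearing mice against healthy liver, and it shares the CT mice with the first comparison and the C26-CHO mice with the second. Here 8 of the 10 genes were called higher and 2 lower, where 62.2% of tested genes were called, 31.3% higher and 30.9% lower. Hspa5 had 1.34, Hsp90b1 0.85, Pdia4 1.66, Sdf2l1 1.93, Creld2 2.05, Dnajb9 1.16, Xbp1 1.20 and Atf6 0.23, with limma adjusted p from 6.25e-13 to 0.00351. In 6 genes every C26-CHO mouse lay above every CT mouse, a separation found upward in 12.1% of tested genes. Dnajb9 was not among them, because C26-CHO 1 at 1381 lay below CT 6 and CT 8. Herpud1 had -0.92 (SE 0.160, limma adjusted p = 1.93e-05), with 6 of 8 C26-CHO mice below every CT mouse. Ern1, not called in C26 vs CT, was lower with -0.30 (SE 0.0757, limma adjusted p = 0.00137), with 4 of 8 mice below every CT mouse. Under quantile normalization Ern1 had -0.18 and was not called (adjusted p = 0.0511). The 10 genes took 0.356% ± 0.0418 of reads in C26-CHO (SD, n = 8).

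One treated mouse stood apart. C26-CHO 1 had the lowest level of its group in 9 of the 10 genes, all but Ern1. It was lowest of its group in 25.2% of all tested genes and in 47.8% of genes called higher in C26 vs CT, so low values in that liver were not limited to the set. It had 17824 for Hspa5, where the other C26-CHO mice had 31484 to 37738 and the highest CT mouse 16638. For Pdia4 it had 7432 against 11191 to 13533 in the other 7. Without C26-CHO 1 the treated mice were still called higher than CT in 8 genes and lower in 2, and none of the 10 was called against C26. Without it Hspa5 had -0.06, Pdia4 -0.11, Xbp1 -0.22 and Ern1 -0.23 in C26-CHO vs C26, and Dnajb9 and Creld2 changed sign to 0.05 and 0.06.

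Mice of a group differed in how much of these mRNAs they held, and Hspa5 was compared with each of the other genes across the 8 mice of each group. With exact two-sided permutation tests over all 40320 pairings, 0 of 27 relations passed correction, and the lowest adjusted p was 0.0945. For Hsp90b1 Pearson's r with Hspa5 was 0.75 in CT, 0.68 in C26 and 0.93 in C26-CHO, with Spearman's rho of 0.67, 0.43 and 0.71. The exact permutation p of r was 0.0392, 0.0714 and 0.0105, that of rho 0.0831, 0.299 and 0.0576, and the adjusted p of r 0.193, 0.193 and 0.0945. Without the 2 mice farthest from the Hspa5 median r was 0.77, 0.80 and 0.80, so this pair kept its sign in each group. Creld2 had r of 0.82 and rho of 0.88 in CT (exact permutation p = 0.00692 and 0.00724, adjusted p = 0.0945 and 0.195), and r was 0.75 without CT 1 and CT 4. Dnajb9 had r of 0.86 and rho of 0.83 in C26 (exact permutation p = 0.00937 and 0.0154, adjusted p = 0.0945 and 0.208), and r was 0.78 without C26 3 and C26 4.

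In C26-CHO the relations with Hspa5 other than that of Hsp90b1 were much smaller without 2 mice. Pearson's r was 0.91 for Pdia4, 0.87 for Dnajb9, 0.84 for Atf6, 0.78 for Creld2 and 0.69 for Herpud1, with rho of 0.48, 0.36, 0.55, -0.05 and 0.33. Exact permutation p of r ran from 0.0466 to 0.0699 and of rho from 0.171 to 0.935 for these 5, with adjusted p of r of 0.193 for each and of rho from 0.519 to 0.971. Without C26-CHO 1 and C26-CHO 6 r fell to 0.49, -0.27, -0.11, 0.01 and -0.48. For Xbp1 and Sdf2l1 r was 0.73 and 0.67 (exact permutation p = 0.0878 and 0.0955, adjusted p = 0.215 for each). Their rho was 0.05 and 0.14, and r fell to 0.18 and 0.21 without the same 2 mice. Ern1 showed no relation with Hspa5 that passed in any group, with r of -0.01 in CT, -0.17 in C26 and 0.44 in C26-CHO (exact permutation p = 0.988, 0.678 and 0.222, adjusted p = 0.988, 0.704 and 0.358). Its rho was -0.05, 0.00 and 0.60 (exact permutation p = 0.935, 1.0 and 0.132), and without the 2 farthest mice r was 0.24, 0.15 and 0.22.

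**Figure D5:**
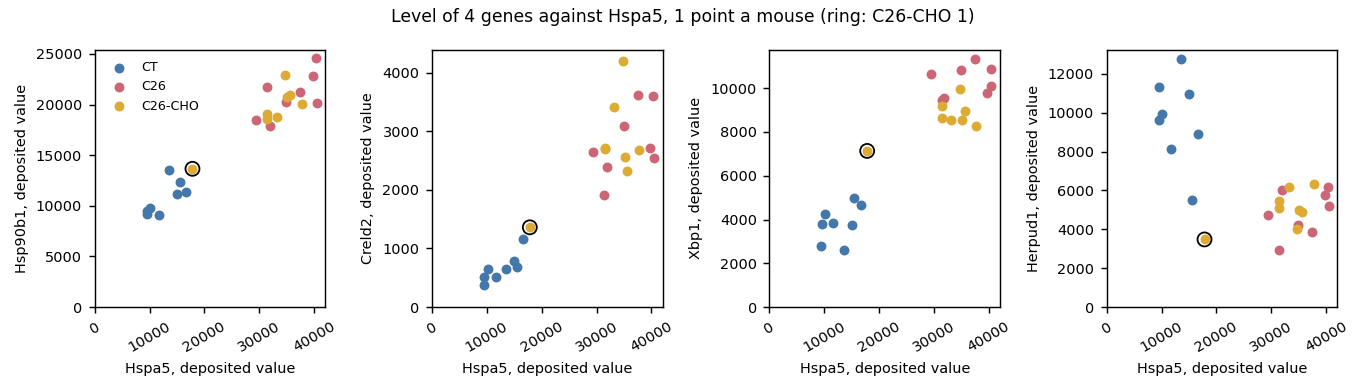
Deposited value of Hsp90b1, Creld2, Xbp1 and Herpud1 (y axes) against that of Hspa5 (x axes) in the 24 mice, colored by group, with a ring around C26-CHO 1. The tumour groups lie to the right of CT in every panel, and in the Herpud1 panel they lie below most CT mice.

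With log2 values centred on the group mean, so that the group difference is removed, the set was ranked among 10478 other genes by likeness to Hspa5 over the 24 libraries, as a description. Hsp90b1 ranked 14 (r = 0.81), Creld2 38 (0.76), Pdia4 72 (0.72) and Dnajb9 94 (0.70). Atf6 ranked 369 (0.59), Xbp1 1331, Sdf2l1 1355, Herpud1 3483 and Ern1 3907. The values graded from gene to gene down to Xbp1 (0.44) and the folding factor Sdf2l1 (0.44). Herpud1 (0.18) and Ern1 (0.13) stood below a wider step. The points share libraries and size factors, and C26-CHO 1 raised all of these values. Without it r was 0.71 for Hsp90b1, 0.65 for Creld2, 0.51 for Pdia4, 0.50 for Dnajb9, 0.46 for Atf6, 0.34 for Xbp1 and 0.26 for Sdf2l1. Herpud1 then had -0.06 and Ern1 -0.01. The genes most like Hspa5 outside the set were Yipf5 (0.88), Dnajc3 (0.87) and Uso1 (0.86). Without C26-CHO 1 they had 0.82, 0.77 and 0.82, at ranks 3, 7 and 2. The genes most like Xbp1 were Champ1 (0.84), Cish (0.80) and B4galt1 (0.77), and those most like Herpud1 were Rhbdd2 (0.80), Angptl4 (0.80) and Ahcy (0.79). Without that mouse their ranks were 1, 3 and 8 for Xbp1 and 2, 3 and 8 for Herpud1. In C26 vs CT Ahcy was called lower like Herpud1, with -0.41, while Rhbdd2 and Angptl4, with -0.11 and -0.18, were not called.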

How the data were processed

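Liver RNA was sequenced from 8 mice in each of 3 groups. Per the labels' protocols, RNA was extracted with Trizol and treated with DNase I. Per the submitters' processing notes, reads were handled with bcl2fastq 2.17, FastQC, Trimmomatic 0.38, STAR 2.6.1d on GRCm38 and DESeq2 1.22.2. The tool and annotation for counting, and whether strand was used, were not given in the sources used here. The authors deposited a normalized signal, the gene count of a library divided by its size factor. 100% of values were whole multiples of 1 step per library within 0.001 of a read, so reads could be recovered.

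The 14040 genes whose mean value reached 10 or more entered a limma fit (version 3.58.1, R 4.3.3, with trend) on log2 of the value plus 1, with all 24 libraries, 3 groups, no covariate and Benjamini-Hochberg adjustment within a comparison. Alternatives were pseudocounts of 0.5 and 10, no filter or a mean of at least 50, quantile and TMM scaling, edgeR 4.0.16, DESeq2 1.42.0, 2 groups in the fit, a replicate block, and each library left out. The fits were tested on simulated data in which a small part of the genes was changed, equally up and down. In C26 vs CT most tested genes were called, so that test does not cover this setting. Symbols came from GENCODE M21 (21959 of 22392 identifiers) and promoters from RefSeq.

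The 10 genes and the lists were chosen with earlier results of these data known. Named genes are the 10, up to 4 list members called in each direction with the lowest p in C26 vs CT, 3 with the lowest p in C26-CHO vs C26, 3 most like Hspa5, Xbp1 and Herpud1, and up to 4 with an ERSE; others are said to be named after their values were seen. A planned rule on protein C-termini was not applied, because protein sequences were not used here.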

Additional observations from a re-analysis of the deposited data

Results flagged for a closer look

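In each group of 8 mice the highest and lowest values of the 10 genes were checked for a gap to the next mouse that was large against the range of the group, by Dixon's critical value at 95%. Chance gives such a gap in about 1 of 20 groups, and 4 of 30 had one. C26-CHO 1 was far below the rest of its group for Hspa5 (17824, others 31484 to 37738), Hsp90b1 (13657, others 18587 to 22883) and Pdia4 (7432, others 11191 to 13533). These are 3 genes of 1 liver and not separate events. CT 8 was far above the other CT mice for Dnajb9 (2305, others 942 to 1417). Without CT 8 Dnajb9 was still called higher in C26 vs CT and in C26-CHO vs CT (limma).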

How the results depend on the processing

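Counts of the 10 genes called in each direction were the same in all alternatives and in all 24 fits that left out a mouse, with 2 exceptions. DESeq2 called 1 gene lower in C26-CHO vs C26, Ern1, where limma called 0, and quantile normalization called 1 gene lower in C26-CHO vs CT in place of 2, again through Ern1. Leaving out 1 mouse gave 8 higher and 1 lower in C26 vs CT, 0 and 0 in C26-CHO vs C26, and 8 and 2 in C26-CHO vs CT. The count of all genes called in C26-CHO vs C26 was 99, and it was 326 with DESeq2, 10 with 2 groups in the fit, and 23 to 272 over the fits that left out a mouse. On the recovered reads edgeR called 9301 genes in C26 vs CT, 117 in C26-CHO vs C26 and 8807 in C26-CHO vs CT. Of the counts without 1 mouse, the lowest came without C26-CHO 7 and the highest without C26-CHO 3. The count was 25 without C26 1, 53 without C26 2, 51 without C26 7, 160 without C26-CHO 4, 55 without C26-CHO 6 and 56 without C26-CHO 8. Under quantile normalization the log2 fold change of Hspa4 was 0.0567 in C26 vs CT (-0.16 without it) and 0.00419 in C26-CHO vs CT, and that of Grpel1 was 0.15 in C26 vs CT (-0.05 without it). The cause was not tested. Same-numbered mice of different groups have no link stated in the labels. Their deviations from the group means correlated with r from -0.20 to 0.25 (median 0.08) over 24 pairs, 9 of them above 0.1. Of 24 libraries 5 matched best with their own number, and whether this exceeds chance was not tested. The replicate block left the counts of the 10 genes at 8 and 1, 0 and 0, and 8 and 2, and called 97 genes in C26-CHO vs C26, 9643 in C26 vs CT and 9079 in C26-CHO vs CT. Labels name separate mice, so p-values measure the spread between mice, and 8 mice a group leave intervals of C26-CHO vs C26 as wide as -0.67 to 0.09 for Sdf2l1.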
